A study of Homo sapiens with 10 samples.

Results

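Silencing of LINC00324 was compared with a scramble control on 6 of the 10 microRNA arrays of the series, chosen by the siRNA named in their labels. LINC00324 is a long noncoding RNA gene at chr17:8220630-8224043 (GRCh38.p14), a span of 3414 bases on the short arm of chromosome 17. All arrays held total RNA of the human embryonic kidney line HEK-293, taken after transient transfection with 10 nM siRNA. The groups were 2 arrays with the scramble siRNA, 2 with LINC00324 siRNA 1 and 2 with LINC00324 siRNA 2, and every group, scramble included, went through lipid transfection. The other 4 arrays, of cells silenced for a second long noncoding RNA, LOC400043, served here to estimate the spread between replicates and to set the detection floor, apart from values given side by side near the end. The titles number the 2 arrays of each group as biological replicates, with no word on whether separate cultures were used, so the tests see only the spread among these arrays, which may be technical. The arrays do not measure LINC00324, so how far either siRNA lowered it is unknown.

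MicroRNAs (miRNAs) are RNAs of about the length of the sequences printed here, cut from hairpin precursors that can release a miRNA from each arm, named 5p and 3p. They guide silencing complexes to messenger RNAs mainly through the seed, bases 2 to 8 counted from the 5′ end. Long noncoding and circular RNAs can carry binding sites for miRNAs and are then described as sponges, and some such RNAs are known to change the stability of the miRNAs they bind. The arrays measured miRNA levels and not binding, and the comparison asks which miRNAs change in level when LINC00324 is silenced.

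The sequences below are those of 18 of the 30 miRNAs that passed the test, as deposited with the arrays, with the seed in capitals. The first 13 are all the passing miRNAs with a GC content under 70%, shown because the falls of GC-rich miRNAs were shared by GC-rich control probe sets. The last 5 are GC-rich: miR-1909-3p, which had the largest change, and the 2 pairs with a common seed.
miR-34a-5p: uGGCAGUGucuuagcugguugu
miR-34a-3p: cAAUCAGCaaguauacugcccu
miR-218-5p: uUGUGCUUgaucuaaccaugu
miR-7-5p: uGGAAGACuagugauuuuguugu
miR-99b-3p: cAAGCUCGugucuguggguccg
miR-181a-2-3p: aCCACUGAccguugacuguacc
miR-23a-5p: gGGGUUCCuggggaugggauuu
miR-498: uUUCAAGCcagggggcguuuuuc
miR-550a-5p: aGUGCCUGagggaguaagagccc
miR-1246: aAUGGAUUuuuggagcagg
miR-637: aCUGGGGGcuuucgggcucugcgu
miR-3185: aGAAGAAGgcggucggucugcgg
miR-4298: cUGGGACAggaggaggaggcag
miR-1909-3p: cGCAGGGGccgggugcucaccg
miR-3180-3p: uGGGGCGGagcuuccggaggcc
miR-3196: cGGGGCGGcaggggccuc
miR-1908-5p: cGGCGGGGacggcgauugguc
miR-663a: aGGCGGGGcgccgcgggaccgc

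Tests covered 322 of the 1080 named human mature probe sets (29.8%), those with a mean signal over the detection floor, a log2 signal of 1.31 set from the plant probe sets of the array. Levels are log2 signals, each change is the mean of both siRNA groups minus scramble on the log2 scale, and SE is its standard error. The adjusted p printed with a change comes from limma and was adjusted by Benjamini-Hochberg over the 322. Below, "passed" means an adjusted p under 0.05. The median signal of the detected probe sets was 4.40 and 4.18 on the scramble arrays and 4.17 and 4.11 with siRNA 1. With siRNA 2 it was 3.45 and 3.77, the lowest of the 6 arrays.

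Most miRNAs that passed were lower in LINC00324-silenced cells. In all 30 of 322 passed, 9.32% of those tested, of which 29 (9.01%) were lower and 1 (0.311%) was higher. The changes of those that were lower ran from −0.65 to −2.19, and their adjusted p from 0.0102 to 0.0441. Over all 322 the median change was −0.14, with 205 negative and 117 positive, and 74 had an unadjusted p under 0.05. In 28 of the 30 the silenced and scramble arrays did not overlap. Over all 322, all 4 silenced arrays lay below both scramble arrays in 65 (20.2%) and above both in 18 (5.59%). The count rested on both control arrays. Without scramble replicate 1 limma gave 0 calls, where 50 had an unadjusted p under 0.05, and 4 calls were left without scramble replicate 2. Centring each array on its median also gave 0 in limma, where 91 had an unadjusted p under 0.05. All 30 kept their sign in every alternative in which they were tested, but they were picked for changes on these same arrays. Some changes became small, that of miR-1469 −0.04 at its smallest. A lower signal from a culture does not tell fewer cells that hold a miRNA from less of it per cell.

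miR-34a, a p53-induced miRNA that represses cell cycle genes such as CDK6 and CCND1, was lower on both of its arms. The 5p arm, the guide strand, had signals of 7.90 and 7.81 in scramble cells, 6.16 and 6.65 with siRNA 1, and 7.07 and 7.09 with siRNA 2. The 3p arm read 4.31 and 3.89 in scramble cells, 1.86 and 1.66 with siRNA 1, and 2.93 and 2.78 with siRNA 2. On both arms all 4 silenced arrays lay below both scramble arrays, and the siRNA 1 arrays were the lowest. The change was −1.11 for miR-34a-5p (SE 0.18, adjusted p = 0.0102) and −1.79 for miR-34a-3p (SE 0.23, adjusted p = 0.0102), which are 2.16-fold and 3.47-fold. With siRNA 1 alone they were −1.45 and −2.34, and with siRNA 2 alone −0.77 and −1.24, where only the 3p arm passed (adjusted p = 0.0557 and 0.0348). Their GC content was 50% and 45.5%. Both arms lie at chr1:9151693-9151714 and chr1:9151735-9151756 on the minus strand (GRCh38.p14, RefSeq), inside the span of the noncoding gene MIR34AHG.

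The array also holds probe sets named for miR-34a of other species, which were hybridised with the same human RNA and so are further readings of the same samples and not independent ones. All 18 above the floor were lower on all 4 silenced arrays, with a median change of −1.15. With siRNA 1 their changes ran from −1.73 to −1.19 and with siRNA 2 from −0.95 to −0.66, so that the ranges did not overlap. Over the passing miRNAs that were lower, 17 had such probe sets above the floor, 101 in all. Of these, 49 were lower on all 4 silenced arrays and 1, of miR-762, was higher on all 4. Over all 322 human probe sets the shares were 20.2% and 5.59%. The identity of the sequences between species was not examined.

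Among the other p53-responsive miRNAs listed, miR-194-5p (0.10, SE 0.18, adjusted p = 0.826) and miR-192-5p (0.30, SE 0.27, adjusted p = 0.606) were detected and did not pass. The list thus had 2 of 4 detected members lower, both arms of one gene, with a median of −0.51 against −0.14 for all detected miRNAs. Of all 322, 9.01% were lower. The lists were chosen with results of these data known, so their counts describe these arrays only.

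**Figure D1:**
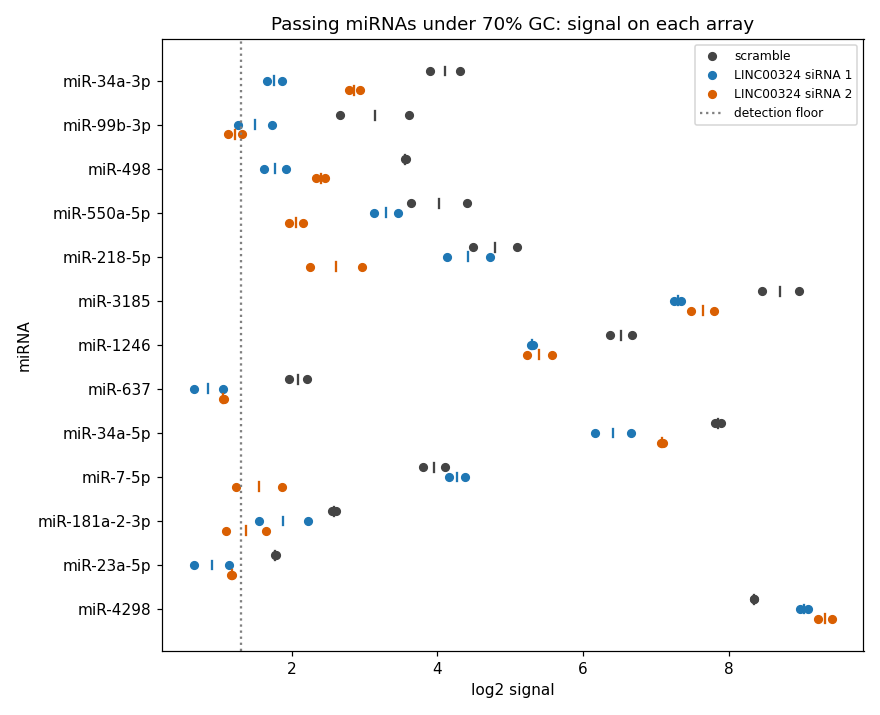
Log2 signal (horizontal axis) on each of the 6 arrays for the 13 passing miRNAs with a GC content under 70% (vertical axis), where each point is 1 array, each short bar the mean of the 2 arrays of a group, and the dotted line the detection floor of 1.31. The scramble points lie to the right of all silenced points for 10 of the 12 that were lower, miR-218-5p and miR-7-5p are low with siRNA 2 alone, and miR-4298 is higher on all 4 silenced arrays.

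Several passing miRNAs came from a hairpin whose other arm did not pass. miR-99b-3p read 3.61 and 2.67 in scramble cells, 1.73 and 1.27 with siRNA 1, and 1.13 and 1.32 with siRNA 2, without overlap. Its change was −1.77 (SE 0.32, adjusted p = 0.0136), at least 1.72 lower when the 2 silenced arrays below the floor are set to it. The other arm, miR-99b-5p, a member of a family that targets MTOR, was at 0.07 (SE 0.14, adjusted p = 0.836). The neighbours cut from the same cluster, let-7e-5p (−0.26, adjusted p = 0.338) and miR-125a-5p (0.11, adjusted p = 0.652), did not pass either. The 3p arm maps to chr19:51692656-51692677, within the span of SPACA6 and SPACA6-AS1.

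miR-181a-2-3p had signals of 2.56 and 2.61 in scramble cells, 2.22 and 1.55 with siRNA 1, and 1.64 and 1.10 with siRNA 2. Its arrays did not overlap, and the change was −0.96 (SE 0.23, adjusted p = 0.0441), or at least 0.90 lower with the siRNA 2 array that lay under the floor set to it. The guide strand of that hairpin, miR-181a-5p, which tunes T cell receptor signalling in lymphocytes, was at 0.17 (SE 0.17, adjusted p = 0.629), and miR-181b-5p, from the same cluster, was at 0.14. Of 6 detected miR-181 family members 1 was thus lower and 0 were higher in limma, and the family's median was 0.16. Of all 322, 9.01% were lower and 0.311% higher.

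miR-23a-5p lay just above the floor in scramble cells, at 1.78 on both arrays, and fell under the floor on each silenced array. The fitted change of −0.74 (SE 0.17, adjusted p = 0.0432) is therefore given as at least 0.47 lower. Its mean over the 6 arrays lay under the floor of 1.29 set on those arrays. It thus counts as detected only with the LOC400043 arrays. It did not pass with no floor, with quantile normalization or on the 6 arrays alone. Its guide strand miR-23a-3p was at 0.04 (adjusted p = 0.915). miR-27a-3p, a regulator of adipogenic genes from the same cluster, was at −0.11 (adjusted p = 0.719) and miR-24-3p at −0.14 (adjusted p = 0.592).

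miR-550a-5p read 4.40 and 3.64 in scramble cells, 3.12 and 3.45 with siRNA 1, and 1.96 and 2.16 with siRNA 2. The silenced arrays were all lower, the siRNA 2 arrays by the most, and the change was −1.35 (SE 0.24, adjusted p = 0.0136). With siRNA 1 alone it did not pass (−0.73, adjusted p = 0.211), and with siRNA 2 it did (−1.96, adjusted p = 0.0182). Its sequence lies at 2 places in RefSeq, chr7:30289815-30289837 and chr7:32733002-32733024, which one probe set cannot tell apart. The opposite arm miR-550a-3p was at −0.39 (SE 0.47, adjusted p = 0.698). Of 2 probe sets named for miR-550 in other species, 1 was lower on all 4 silenced arrays. Their changes were −0.81 and −0.03, and with siRNA 2 alone −0.70 and −0.16.

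The opposite arm was detected for 10 of the passing miRNAs, and among these only the 2 arms of miR-34a passed together. miR-1909-5p was at −1.11 (SE 0.38, adjusted p = 0.131), miR-1228-3p at −0.81 (adjusted p = 0.289), miR-149-5p at −0.18 (adjusted p = 0.673) and miR-7-1-3p at −0.04 (adjusted p = 0.970).

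miR-498, which belongs to a cluster found in primates and active in placenta, on chromosome 19, read 3.55 and 3.57 in scramble cells, 1.92 and 1.61 with siRNA 1, and 2.45 and 2.34 with siRNA 2. The groups did not overlap and the change was −1.48 (SE 0.22, adjusted p = 0.0102). Of 26 listed members of that cluster on the array 2 were detected, and the other, miR-1323, was at 0.58 (SE 0.47, adjusted p = 0.551). Probe sets named for miR-498 in other species read 3.32 to 4.15 on scramble replicate 1 but 1.70 to 1.82 on scramble replicate 2. Of the 3 above the floor, 1 was lower on all 4 silenced arrays.

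miR-1246, a miRNA also described as a fragment of U2 small nuclear RNA, had signals of 6.67 and 6.36 in scramble cells, 5.32 and 5.28 with siRNA 1, and 5.23 and 5.57 with siRNA 2. The silenced arrays lay close together and below both scramble arrays, with a change of −1.17 (SE 0.19, adjusted p = 0.0102). It maps to chr2:176601024-176601042, where RefSeq's table lists no other gene. It was one of the 6 miRNAs that passed with each array's GC trend removed, as were miR-34a-3p, miR-498, miR-1909-3p and miR-4298.

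miR-3185 read 8.45 and 8.96 in scramble cells, 7.35 and 7.24 with siRNA 1, and 7.49 and 7.80 with siRNA 2, a change of −1.24 (SE 0.18, adjusted p = 0.0102). It lies at chr17:48724446-48724468, on the long arm of the chromosome that carries LINC00324, within the span of PRAC2. miR-637 lay at 1.96 and 2.21 in scramble cells, and all 4 silenced arrays were below the floor, so that its change of −1.13 (SE 0.19, adjusted p = 0.0133) is at least 0.78 lower. Neither of these had overlapping groups.

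The single miRNA that was higher was miR-4298, at chr11:1859505-1859526 within the span of LSP1. It read 8.34 on each scramble array, 9.08 and 8.97 with siRNA 1, and 9.41 and 9.23 with siRNA 2. All 4 silenced arrays lay above both scramble arrays, by 0.83 (SE 0.12, adjusted p = 0.0102), or 1.78-fold. Its GC content was 68.2%, and it passed with either siRNA alone (adjusted p = 0.0305 and 0.0182). The next 6 positive changes by p-value did not pass. They were those of miR-181c-5p, miR-1275, miR-25-5p, miR-92a-1-5p, miR-3065-5p and miR-4258, of 0.84, 0.63, 0.56, 0.66, 0.78 and 0.45 in this order, with adjusted p between 0.0702 and 0.123. Both scramble arrays of miR-181c-5p were under the floor, and its change counted from there was 0.41.

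miRNAs rich in G and C made up most of those that were lower. The GC content was at least 70% in 17 of the 29, whose median was 76.2% against 52.4% over all detected miRNAs, while the median length was 22 bases in both. A run of GGGG stood in 15 of the 29 (51.7%) and in 53 of the 322 (16.5%). By class of GC content, 17 of 52 detected miRNAs with at least 70%, 8 of 154 with 50 to under 70% and 4 of 116 under 50% were lower. The median changes of these classes were −0.70, −0.14 and −0.02.

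Control probe sets of the array moved with the GC-rich miRNAs. The 34 background controls with at least 70% GC had median signals of 2.01 and 1.95 on the scramble arrays, 1.22 and 1.27 with siRNA 1, and 1.34 and 1.51 with siRNA 2. All 4 silenced arrays were lower, with a median change of −0.70. For the 21 controls of 50 to under 70% GC the median was 0.01, and for the 40 under 50% it was 0.03. With each array's GC trend removed 6 miRNAs passed, 2 higher and 4 lower, and 2 of them were GC-rich, miR-1909-3p and miR-1275. The median of the GC-rich miRNAs was then −0.11. The trend was fitted to the same detected miRNAs, so a smaller median for the GC-rich ones was built in. Falls of GC-rich miRNAs of any origin would be removed with it. The part of GC content in the result was not tested.

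**Figure D2:**
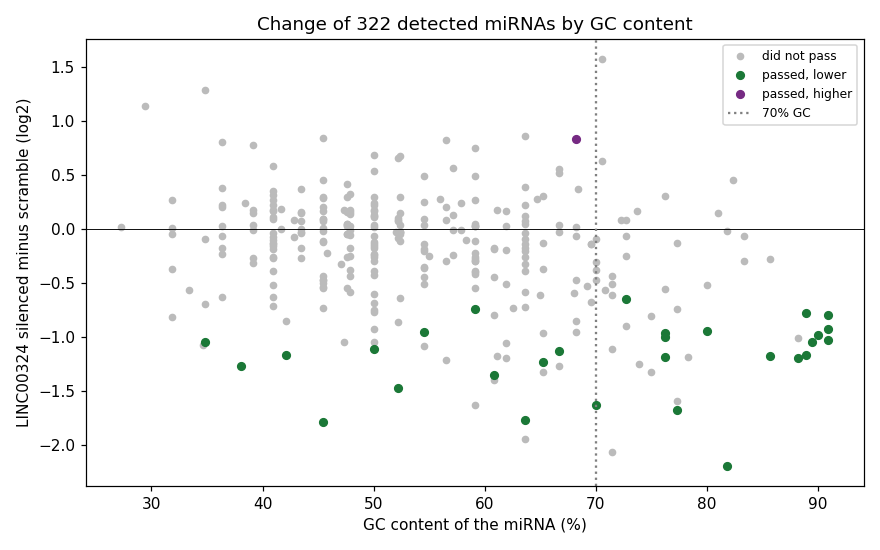
Change with LINC00324 silencing (log2, silenced minus scramble, vertical axis) against the GC content of the miRNA in percent (horizontal axis) for the 322 detected miRNAs, each a point, with those that passed coloured by direction. To the right of the dotted line at 70% lie 52 miRNAs with a median change of −0.70, of which 17 passed, and to its left 270 with a median of −0.09, of which 13 passed.

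miR-1909-3p, with 81.8% GC, had the largest change of any miRNA that passed. It read 4.43 and 5.19 in scramble cells, 2.38 and 3.09 with siRNA 1, and 2.15 and 2.86 with siRNA 2, without overlap. The change was −2.19 (SE 0.32, adjusted p = 0.0102), or 4.57-fold, and −1.56 with the GC trend removed, where it passed. It lies at chr19:1816169-1816190 within the span of REXO1.

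Of the 29 that were lower, 27 distinct seeds were counted, and the 2 shared seeds belong to GC-rich pairs printed above. The seed GGGGCGG was shared by miR-3180-3p and miR-3196, and the seed GGCGGGG by miR-1908-5p and miR-663a. No other detected miRNA carried either seed. miR-3180-3p read 6.28 and 6.32 in scramble cells, 4.11 and 4.96 with siRNA 1, and 4.12 and 5.28 with siRNA 2, a change of −1.68 (SE 0.35, adjusted p = 0.0268). miR-3196 fell from 10.70 and 10.72 to between 9.31 and 9.70 on the 4 silenced arrays. miR-1908-5p fell from 10.20 and 10.22 to between 8.75 and 9.15, and miR-663a from 9.68 and 9.89 to between 8.50 and 9.18. The groups overlapped in none of the 4.

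The list of mirtrons, a class described as cut from spliced introns without the Drosha step, had 2 of 10 detected members lower. Of all detected miRNAs, 9.01% were. Whether each listed member is cut in that way was not examined. miR-1231, of 70% GC, read 6.15 and 6.05 in scramble cells, 4.38 and 4.31 with siRNA 1, and 4.01 and 5.17 with siRNA 2, a change of −1.64 (SE 0.31, adjusted p = 0.0172). miR-1228-5p, which lies within the span of LRP1, read 9.06 and 8.99 in scramble cells and between 7.95 and 8.15 on the silenced arrays. miR-1225-5p (−1.59, SE 0.43, adjusted p = 0.0702) and miR-877-5p (−0.62, adjusted p = 0.520) did not pass. The list's median was −0.57 against −0.14 for all detected miRNAs, and −0.16 against 0.05 with the GC trend removed.

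The other GC-rich miRNAs that were lower had changes between −0.65 and −1.20. They were miR-3178 (−1.20), miR-1181 (−1.18, at least 1.08 from the floor), miR-2861 (−1.04), miR-762 (−1.03), miR-1915-3p (−0.99), miR-149-3p (−0.97), miR-638 (−0.95), miR-1469 (−0.80), miR-4281 (−0.78) and miR-323a-5p. miR-323a-5p, of the imprinted cluster at 14q32, was under the floor on each silenced array, so that its change is at least 0.32 lower. Its mean over the 6 arrays lay under the floor of 1.29 set on those arrays. It did not pass with quantile normalization or on the 6 arrays alone. Of 5 detected members of that cluster it was the only one to pass, and miR-494-3p, on the same cluster, had a change of −0.73 with an SE of 1.08. Over all 322, 9.32% passed.

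Position in the genome and signal level were also described. RefSeq or the deposited positions put 7 of the 29 on chromosome 19 alone (24.1%), against 29 of the 322 (9.01%), leaving out 1 and 2 miRNAs respectively that lie on chromosome 19 and another, miR-7-5p in both. Calls were more frequent where the signal was high. Of 46 probe sets with a scramble mean over 8, 14 passed, with a median SE of 0.15, against 8 of 123 between 4 and 8 (median SE 0.20) and 8 of 153 under 4 (median SE 0.35). Most of these 14 were GC-rich, so signal level and GC content cannot be told apart here.

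The probe sets of highest signal in these cells were mostly those of the miR-17 cluster and its paralogs, which promote proliferation. miR-17-5p had signals of 12.87 and 12.86 in scramble cells and between 12.73 and 12.89 on the silenced arrays. Its change was −0.06 with a 95% interval from −0.32 to 0.20. That of miR-20a-5p was 0.03 (−0.22 to 0.29), that of miR-92a-3p 0.04 (−0.26 to 0.33) and that of miR-16-5p, which restrains BCL2 and cyclins, 0.10 (−0.17 to 0.36). Of the 12 probe sets of highest scramble signal, 3 passed, miR-3178, miR-638 and miR-1915-3p, all with at least 80.0% GC. For the other 9 the GC content was at most 54.5%. In the list of the miR-17 cluster 0 of 18 detected members passed in limma and 2 had an unadjusted p under 0.05, with a median of 0.02. Over all 322, 9.32% passed and 74 had an unadjusted p under 0.05.

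**Figure D3:**
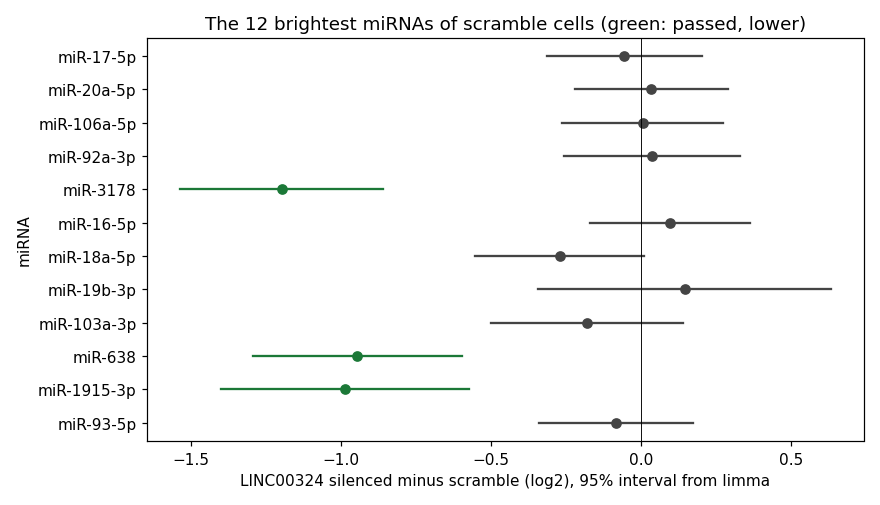
Change with LINC00324 silencing (log2, silenced minus scramble) of the 12 probe sets with the highest scramble signal, with the 95% interval from limma as bars. The intervals of miR-3178, miR-638 and miR-1915-3p lie below 0, and the intervals of the other 9 include 0.

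In other families the detected members mostly did not pass, as was so of all 322, where 9.32% passed. The let-7 family, associated with differentiation, had 0 of 8 members past the test in limma. An unadjusted p under 0.05 was found for 1, and 7 were negative, with a median of −0.46, which became −0.04 with arrays centred on the median. Centring moved all miRNAs alike, and the median of all detected miRNAs went from −0.14 to 0.28. let-7a-5p was at 0.02 (SE 0.16, adjusted p = 0.954) and let-7f-5p at −0.81 (SE 0.31, adjusted p = 0.181). In limma the miR-15 and miR-16 family had 0 of 7 (median 0.10) with 1 at an unadjusted p under 0.05, the miR-320 family 0 of 5 (median 0.18) with 0, and the miR-99, miR-100 and miR-125 families 1 of 6 (median 0.00), the lower miR-99b-3p. These medians stand beside −0.14 for all detected miRNAs.

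miRNA genes of the short arm of chromosome 17, which carries LINC00324, had 0 of 9 detected members past the test in limma, and 0 had an unadjusted p under 0.05. miR-744-5p was at −0.14 (SE 0.17, adjusted p = 0.696), miR-22-3p at 0.29 (SE 0.15, adjusted p = 0.328), miR-1180-3p at 0.05 (SE 0.15, adjusted p = 0.915) and miR-324-5p at −0.18 (SE 0.16, adjusted p = 0.588). In none of the 9 were the silenced arrays all above or all below both scramble arrays, and the median was −0.01. Over all 322 the shares were 9.32% past the test, 20.2% all below and 5.59% all above, so that a count of 0 among 9 is near the background.

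Markers of the line and of other cell types were also read. All 8 listed markers of proliferating HEK-293 cells were detected, and 0 passed in limma or had an unadjusted p under 0.05. Over all 322, 9.32% passed and 74 had an unadjusted p under 0.05. Of markers of other cell types, 1 of 6 was detected for blood (miR-451a), 2 of 5 for neurons (miR-128-3p and miR-7-5p), 1 of 6 for epithelium (miR-200c-3p) and 1 of 6 for mesenchyme and endothelium (miR-126-3p). None of the 4 muscle, 8 pluripotency or 1 liver markers was detected. Summed over the list, the neuronal markers lay between 6.36 and 6.56 (log2 of the summed signal) on the scramble arrays, 6.44 and 6.67 with siRNA 1, and 6.19 and 6.37 with siRNA 2. The epithelial markers lay between 3.58 and 3.85 on all 6 arrays and the blood markers between 3.55 and 4.02. The mesenchymal and endothelial markers summed to 5.31 and 5.01 on the scramble arrays, 5.42 and 5.19 with siRNA 1, and 4.23 and 4.66 with siRNA 2, where both arrays lay below the other 4. The change of miR-126-3p, the detected one, was 0.22 with siRNA 1 and −1.10 with siRNA 2 (SE 0.32, adjusted p = 0.0841). The part of these markers in the siRNA 2 results was not tested.

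Both siRNAs were next set against scramble singly. With siRNA 1, 27 of 322 passed (8.39%), 25 lower and 2 higher, and with siRNA 2, 32 passed (9.94%), 29 lower and 3 higher. Both comparisons share the scramble arrays. The 20 that passed with both, all in the same direction, make up 74.1% of the siRNA 1 calls and 62.5% of the siRNA 2 calls. The siRNA 2 direction depended on the scaling, since with quantile normalization 3 passed, 2 of them higher, and with arrays centred on the median 28 passed, 24 of them higher.

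Compared with each other, the 2 siRNAs differed in 7 of 322 miRNAs (2.17%), and 2 of these belong to the 30. miR-7-5p, a neuroendocrine miRNA that the circular RNA CDR1as binds, read 4.10 and 3.81 in scramble cells, 4.38 and 4.16 with siRNA 1, and 1.86 and 1.24 with siRNA 2. The siRNA 1 arrays lay above both scramble arrays and the siRNA 2 arrays far below. The change was 0.32 with siRNA 1 (adjusted p = 0.585) and −2.40 with siRNA 2 (adjusted p = 0.00938). Its averaged change of −1.04 (SE 0.22, adjusted p = 0.0250) thus rests on siRNA 2. RefSeq lists the miRNA under MIR7-1 on chromosome 9 and MIR7-3 on chromosome 19.

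miR-218-5p, a miRNA of motor neurons that targets components of Slit and Robo signalling, showed a like pattern. It read 5.09 and 4.49 in scramble cells, 4.14 and 4.71 with siRNA 1, and 2.97 and 2.25 with siRNA 2. The siRNA 1 arrays overlapped the scramble arrays and the siRNA 2 arrays did not. Its change was −0.36 with siRNA 1 (adjusted p = 0.615) and −2.18 with siRNA 2 (adjusted p = 0.0182), and −1.27 averaged (SE 0.28, adjusted p = 0.0308). Its sequence lies at chr4:20528299-20528319 and chr5:168768211-168768231.

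Probe sets named for these miRNAs in other species, further readings of the same RNA, were lower with siRNA 2 by widely differing amounts. Of 40 for miR-7 above the floor, 40 were negative with siRNA 2, with a median of −1.64, and 28 with siRNA 1, with a median of −0.16. Both siRNA 2 arrays lay below the other 4 in 32 of them. Of 20 for miR-218, 20 were negative with siRNA 2 (median −1.27) and 15 with siRNA 1 (median −0.21), and both siRNA 2 arrays lay below the other 4 in 12. Over all 322 human probe sets, 220 were negative with siRNA 2 and 186 with siRNA 1. How many of the 322 had both siRNA 2 arrays below the other 4 was not counted. The sets with the highest signal did not share the size of the fall. bta-miR-218, at 8.08 and 8.17 in scramble cells, changed by −0.02 with siRNA 2. The miR-7 sets of highest signal, bta-miR-7, lgi-miR-7 and ssc-miR-7, changed by −0.46, −0.35 and −0.43.

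**Figure D4:**
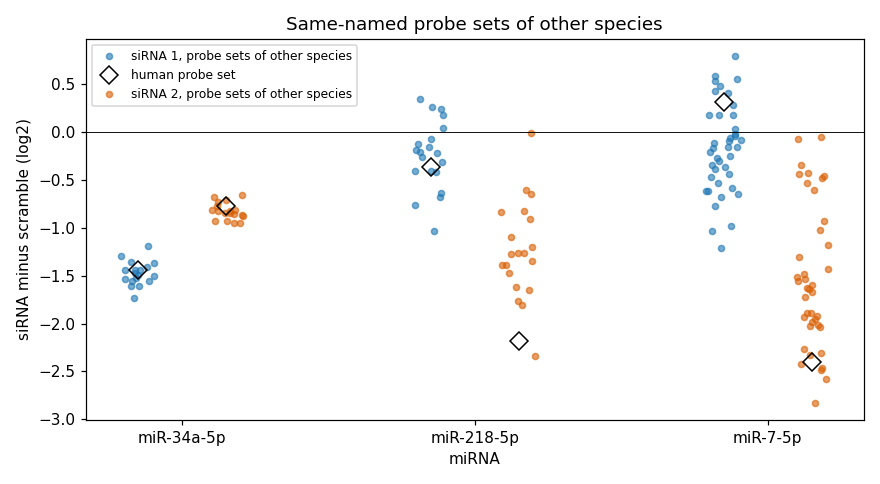
Change against scramble (log2, vertical axis) with siRNA 1 and siRNA 2 for probe sets named for miR-34a-5p, miR-218-5p and miR-7-5p (horizontal axis), where small points are probe sets of other species above the floor and diamonds the human probe set. For miR-34a both siRNAs lie below 0 in all 18 sets, while for miR-218 and miR-7 the siRNA 2 points have medians of −1.27 and −1.64 and the siRNA 1 points medians of −0.21 and −0.16.

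The other 5 that differed between the siRNAs did not pass for silencing as a whole. miR-708-5p read 5.48 and 5.68 in scramble cells, 5.79 and 6.14 with siRNA 1, and 4.38 and 4.29 with siRNA 2. miR-196a-5p, encoded in the HOX clusters, read 6.86 and 6.71 in scramble cells, 7.29 and 7.23 with siRNA 1, and 6.09 and 6.25 with siRNA 2. In both, scramble lay between the siRNAs with no overlap, and the same order held for miR-149-5p and miR-222-5p. miR-3065-5p read 4.13 and 3.93 in scramble cells, 3.91 and 4.19 with siRNA 1, and 5.77 and 5.36 with siRNA 2, so that it was high on the siRNA 2 arrays alone. A fit limited to the 6 arrays gave 0 of these calls in limma (44 at an unadjusted p under 0.05).

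**Figure D5:**
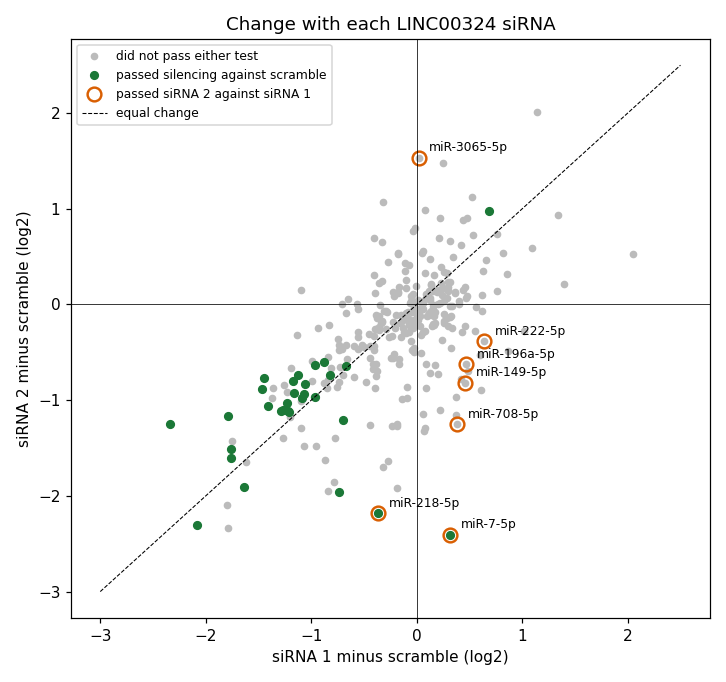
Change against scramble (log2) with siRNA 2 (vertical axis) and siRNA 1 (horizontal axis) for the 322 detected miRNAs, which share the scramble arrays, with the dashed line marking equal change. Filled green points passed for silencing as a whole, and the 7 ringed and named miRNAs differed between the siRNAs, with miR-7-5p and miR-218-5p in both groups.

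In the authors' deposited table for LINC00324, the fold changes equal these changes to within rounding, and 28 of the 30 have a p-value under 0.05 there. The exceptions in the authors' deposited table are miR-218-5p (p = 0.084) and miR-7-5p (p = 0.276), the pair that rests on siRNA 2. Of all 322 detected miRNAs, 73 have a p-value under 0.05 in that authors' deposited table. Its values come from the same arrays on which the 30 were picked, so the overlap is not separate evidence.

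The authors' deposited table for LOC400043 gives changes against the same scramble arrays, so the values are set side by side with no test. Its signals come from a separate normalization run, in which the scramble values differ by probe set (SD of the difference 0.25). For the 29 that were lower with LINC00324 silencing, the authors' deposited table for LOC400043 has 11 negative and 18 positive values. In that authors' deposited table miR-34a-5p is at −0.54, miR-34a-3p at −1.085, miR-99b-3p at −1.165, miR-218-5p at −2.04 and miR-7-5p at −1.46. Of the 17 GC-rich ones, 15 are positive in the authors' deposited table for LOC400043, among them miR-1909-3p at 0.995, miR-1231 at 0.81 and miR-1469 at 0.86. The 2 that are negative in that authors' deposited table are miR-1181 at −0.39 and miR-323a-5p at −0.05. miR-4298 is at 0.49 in the authors' deposited table for LOC400043. How many of all 322 detected miRNAs, or of the 52 GC-rich ones among them, are positive there was not counted. Whether these signs are particular to the miRNAs that passed is thus not known.

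The array also measures hairpin precursors and small nucleolar RNAs (snoRNAs), which guide the modification of ribosomal RNA. Of 389 detected probe sets of these kinds 0 passed in limma (0%), with 83 at an unadjusted p under 0.05 and a lowest adjusted p of 0.0780. The hairpin probe set of mir-3180-1 read 3.44 and 3.48 in scramble cells, 2.22 and 2.34 with siRNA 1, and 2.50 and 2.92 with siRNA 2, a change of −0.96 (SE 0.19, adjusted p = 0.0780). Of the 32 hairpin probe sets of passing miRNAs 11 were detected, 10 of them negative, with changes from −0.96 to 0.12 and an adjusted p of at least 0.0780 in limma. Over all 83 detected hairpin probe sets the median change was −0.01. The 11 were picked through the results of their miRNAs, many of them GC-rich, and a GC trend could not be removed for them. Whether precursors fell with their miRNAs was not tested. The hairpin of mir-34a lay below the floor. Among 306 probe sets sorted by name as snoRNA or Cajal body RNA, all 4 silenced arrays lay above both scramble arrays in 58 (19%) and below both in 7 (2.29%). The sorting also took in a probe set named for a miRNA, mghv-miR-M1-8, which is among the 58. U57 read 8.52 and 8.63 in scramble cells, 9.07 and 9.01 with siRNA 1, and 9.58 and 9.44 with siRNA 2, a change of 0.70 (SE 0.15, adjusted p = 0.0780). HBII-202 was at 0.87 (SE 0.17), U41 at 0.94 (SE 0.20) and the probe set ENSG00000238388 at 1.32 (SE 0.29). The U14B probe set U14B_x_st was at 0.78 (SE 0.16), or at least 0.71, since both scramble arrays were below the floor. A further U14B probe set, U14B_st, read 6.37 and 6.65 in scramble cells and changed by 0.63 (SE 0.18, adjusted p = 0.103). In all of these the silenced arrays lay above both scramble arrays. The median change of the snoRNA and Cajal body RNA probe sets was 0.24, but 0.01 with quantile normalization and 0.66 with arrays centred on the median.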

How the data were processed

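Normalized signals of Affymetrix miRNA 2.0 arrays on a log2 scale were deposited by the authors, with 20706 rows for 10 arrays, as was a table of human mature miRNAs for each target with names, sequences and, per the file headers, a log2 fold change and a p-value. The submitters' processing notes name limma without a version, and background correction, summarization, the method of normalization and the build were not stated there or in the labels. The scramble and LINC00324 columns are equal in both kinds of table. The LOC400043 arrays come from a separate normalization run. For human mature probe sets they were brought to the first by the scramble difference of each probe set (median 0.07, SD 0.25). Plant, hairpin and snoRNA probe sets were not shifted. In the fits the LOC400043 arrays enter only through the spread within their groups. They also count in the means that set the floor and the detected probe sets. In the LOC400043 table, 4 columns matched no label and were not used.

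Of 1100 human mature probe sets, 20 without a name were left out, and 22 carry more than 1 name. The detection floor is the 95th percentile of the mean over 10 arrays of 2392 plant probe sets. Changes counted from the floor, with signals under it set to it, are given as "at least". limma 3.58.1 in R 4.3.3 was fitted over the 10 arrays with a mean for each group, moderated with eBayes, and adjusted by Benjamini-Hochberg at 0.05 (residual degrees of freedom 5, prior 1.92, median SD 0.30). Hairpin and snoRNA probe sets, sorted by the start of their names, were adjusted together. With 2 arrays a group the precision is limited, and replicate arrays correlated across the 322 probe sets with r from 0.973 to 0.988. RefSeq's tables (GRCh38.p14) gave positions for 288 of the 322 and the gene spans, without exons. The GC content of controls was taken from their names.

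The miRNAs, lists and the 70% class were chosen with earlier results of these data known. The rule for names took all that passed, their opposite arms and hairpins, the 6 lowest p-values among positive changes that did not pass, the 12 highest scramble signals, all that differed between the siRNAs, up to 4 members per list, and the 6 lowest p-values among hairpins and snoRNAs. Most hairpins and some list members are given as counts. Members of lists beyond 4, neighbours within a cluster and miRNAs of other lists were named after their values were seen. Alternatives covered normalization, centring, a GC trend, the floor, the arrays fitted, moderation, a replicate block and each array left out. Figures used matplotlib 3.10.9 in Python 3.11.15.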

Additional observations from a re-analysis of the deposited data

Results flagged for a closer look

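The 7 miRNAs that differed between the LINC00324 siRNAs in limma, each tested directly as siRNA 2 minus siRNA 1, are given here because the difference between 2 siRNAs against 1 target passed the test itself. The count depends on the arrays in the fit, since leaving out any 1 of the 6 scramble and LINC00324 arrays gave 1 to 3 calls, the replicate block 1, and the 6 arrays alone 0 in limma (44 at an unadjusted p under 0.05). miR-7-5p differed by −2.72 (SE 0.25, adjusted p = 0.00419), by at least 2.69 when the 1 siRNA 2 array below the floor is set to it. miR-218-5p differed by −1.81 (SE 0.32, adjusted p = 0.0375) and miR-708-5p by −1.63 (SE 0.21, adjusted p = 0.0206). Lower with siRNA 2 were also miR-196a-5p (−1.09), miR-222-5p (−1.02) and miR-149-5p (−1.28). miR-3065-5p was higher with siRNA 2, by 1.52 (SE 0.26, adjusted p = 0.0375). In all 7 both siRNA 2 arrays lay on the same side of both siRNA 1 arrays, and the siRNA 2 arrays also had the lowest median signal of the 6 arrays, 3.45 and 3.77, whose part in these differences was not tested.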

How the results depend on the processing

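All 30 miRNAs that passed for LINC00324 silencing kept their sign in every alternative in which they were tested. They were picked for their changes on these same arrays, so a kept sign says little. At its smallest over the alternatives, the change was −0.04 for miR-1469, −0.05 for miR-4281 and −0.17 for miR-663a. The median change over all detected miRNAs moved from −0.14 to 0.00 with quantile normalization, 0.28 with arrays centred on the median and 0.05 with the GC trend removed, so directions of families hold only relative to these. Against 30 calls in limma, centring gave 0 (91 at an unadjusted p under 0.05), the GC trend removed 6, and the 6 arrays alone 19, where fewer arrays estimate the spread. Leaving out 1 array gave from 0 (without scramble replicate 1) to 32, and without scramble replicate 2 gave 4. For siRNA 1, with 27 calls, centring gave 7, the GC trend 5, the 6 arrays 3, and leaving out 1 array from 0 (without scramble replicate 1 or siRNA 1 replicate 1) to 25, with 2 without scramble replicate 2. For siRNA 2, with 32 calls, quantile normalization gave 3 (2 higher), centring 28 (24 higher), the GC trend 12 (8 higher), no floor 20, the 6 arrays 0 (76 at an unadjusted p under 0.05), and leaving out 1 array from 0 (without scramble replicate 1) to 25, with 4 without scramble replicate 2 and 6 without siRNA 2 replicate 1. For siRNA 2 against siRNA 1, with 7 calls, quantile normalization gave 2, centring 3 (2 higher), the GC trend 4, the 6 arrays 0 (44 at an unadjusted p under 0.05), and leaving out 1 array from 1 to 3. For hairpins and snoRNAs, with 0 calls, centring gave 140 and the stricter floor of 4.50 gave 45, all higher, and a variance trend with robust moderation gave 15, 13 of them higher. The GC trend could not be run there, as these probe sets have no sequence in the files. The causes were not tested.

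Replicate numbers are shared by the groups and no label says that they pair arrays. The correlation of deviations between same-numbered arrays was −0.14, 0.02 and 0.05 for the 3 pairs of groups. With the replicate block the silencing count was 30 and that of siRNA 2 against siRNA 1 was 1.

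Among miRNAs that did not pass, the sign turned with centring for miR-17-5p (0.36), miR-18a-5p (0.15), miR-103a-3p (0.24) and miR-93-5p (0.33), with the GC trend removed for miR-17-5p (0.085) and miR-93-5p (0.12), and with quantile normalization for miR-93-5p (0.19). With 1 array left out, miR-106a-5p ran from −0.032 to 0.040 and miR-92a-3p from −0.0043 to 0.076.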
